A study of Mus musculus with 3 samples.

Results

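The RNAs recovered with an antibody against HuR were compared, gene by gene, with those recovered with an antibody against YB-1 from the same kind of muscle cell extract. A gene entered the comparison when the mean of its normalized counts in both libraries was 10 or more, which 11868 of 15403 named genes met, after 25 rows that carried a calendar date in place of a gene symbol had been dropped. The series asks which mRNAs HuR and YB-1 bind in muscle cells, by RIP-seq, in which RNA held by an antibody's target protein is pulled down and sequenced. Both extracts came from C2C12, a mouse myoblast line that fuses into myotubes when serum is lowered, collected on day 2 of differentiation under 2% horse serum, with 500 µg of extract on the beads. There was 1 library per antibody. The labels name no genetic change or knockdown, but the column names of both libraries carry a tag, siCtl, that they do not explain. The control IgG library was not used for any value here.

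HuR, the product of Elavl1, is an RNA-binding protein that prefers U-rich and AU-rich stretches, mostly in 3' UTRs and introns, and is known for raising the stability of the mRNAs it binds. YB-1, the product of Ybx1, is a cold-shock domain protein and an abundant packaging protein of cytoplasmic mRNA with a broad range of targets. In differentiating myoblasts HuR is known to bind the mRNAs of myogenic regulators, among them Myog. Sequences are written here as DNA, so T stands for U in the RNA.

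The HuR library held 24797504 reads and the YB-1 library 39112714, and 1 read was worth 0.862 and 0.531 normalized counts. The 100 most abundant genes took 27.5% of the HuR reads and 33.7% of the YB-1 reads. With 1 library per antibody no difference has a replicate check and none was tested. Intervals of single ratios are exact 95% Clopper-Pearson intervals for counting error only, and without molecular identifiers the reads are not independent molecules. Both libraries were muscle libraries: 11 of 12 muscle markers were found under the symbol listed for them. The listed symbol Mymk was not found, so its level is left out of the sums. The summed levels of the 11 were 709854 normalized counts in HuR against 707708 in YB-1. These near-equal sums hide opposite differences of single markers, so they do not show equal recovery of muscle mRNAs. Myog stood at 229849 in HuR against 45679 in YB-1, whereas Des stood at 99071 against 173236 and Acta1 at 103252 against 189406. The 6 endothelial markers together had 2 reads in HuR and 27 in YB-1, and the 6 adipocyte markers 12 and 2. Acta2 and Tubb3, listed as markers of smooth muscle and neurons, were present in both libraries.

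On the authors' scaling, most transcripts had like normalized counts with both antibodies, and the exceptions leaned towards HuR. Like counts do not by themselves show like recovery, since the scaling sets where equality lies. Of 11868 genes, 8316 (70.1%) lay within 2-fold of equality, 2289 (19.3%) were at least 2-fold higher in HuR, against 1263 (10.6%) at least 2-fold lower. The median log2 ratio of HuR over YB-1 was -0.06, with quartiles of -0.55 and 0.72. At least 4-fold higher in HuR were 831 genes (7%) and at least 4-fold lower 354 (2.98%). The counting interval lay wholly past 2-fold for 1837 of the higher and 776 of the lower genes. Among genes past 2-fold, the tilt towards HuR was larger at high levels, although the median did not climb with level. It was 0.08 at a mean of 10 to 30 normalized counts and -0.07 at 3000 or more. At 10 to 30, 32.0% of genes were higher and 30.95% lower, against 24.6% and 6.60% at 3000 or more. These shares depend on how the libraries are scaled. Higher genes made up 64.4% of all genes past 2-fold on the authors' scaling, 61.9% after scaling to total reads, and 90.7% when ribosomal protein mRNAs were centred on 0, which raises every log2 ratio by 0.73. The order of genes and their place above or below the median of all genes do not change with scaling, so gene groups are described below against that median.

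**Figure D1:**
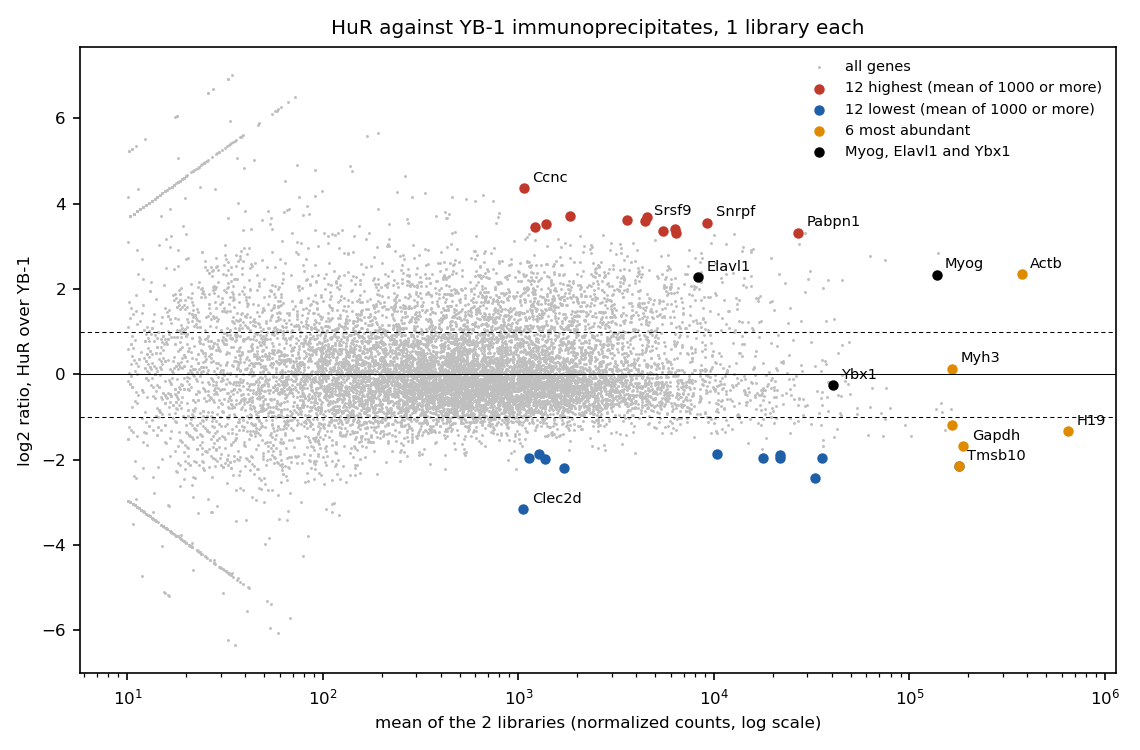
Each point is 1 gene, with the mean of both libraries in normalized counts on a log axis and the log2 ratio of HuR over YB-1 on the vertical axis; dashed lines mark 2-fold, and the diagonal strings at low means are genes at 0 in a library, set to 3 reads. Among genes with a mean of 1000 or more, the ratios reach from -3.16 (Clec2d) to 4.37 (Ccnc), and the very abundant Actb (2.34) and H19 (-1.33) lie on opposite sides.

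The 6 most abundant transcripts divided between the antibodies. Actb, the gene of beta-actin, had 625331 normalized counts in HuR against 123475 in YB-1, 5.06-fold higher in HuR (5.04 to 5.09). H19, an imprinted long noncoding RNA that is abundant in embryonic muscle, stood at 369789 in HuR and 930823 in YB-1, 2.52-fold higher in YB-1 (2.51 to 2.53). H19 alone took 4.49% of the YB-1 reads, and Actb took 2.93% of the HuR reads. Gapdh, a glycolytic enzyme, stood at 89770 and 287728 and was 3.21-fold higher in YB-1 (3.18 to 3.23). Tmsb10, which encodes the actin-monomer-binding thymosin beta 10, was 4.43-fold higher in YB-1 (4.40 to 4.47), and Tpt1, translationally controlled tumour protein, 2.29-fold higher (2.27 to 2.30). Myh3, the embryonic myosin heavy chain, was nearly even, with 172930 in HuR and 158088 in YB-1.

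Of the transcripts at the centre of the study, Myog had 229849 normalized counts in HuR against 45679 in YB-1. That is a log2 ratio of 2.33, which ranked 561 of 11868 from the highest. The mRNA of HuR itself, Elavl1, stood at 13792 and 2847, a log2 ratio of 2.28. The mRNA of YB-1, Ybx1, was closer to even, with 36771 in HuR and 44148 in YB-1, a log2 ratio of -0.26. Thus Myog and Elavl1 lay above 2-fold towards HuR, and Ybx1 lay within 2-fold.

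Among the 3740 genes with a mean of 1000 or more, 790 (21.1%) were at least 2-fold higher in HuR, against 189 (5.05%) at least 2-fold lower. The gene with the highest ratio was Ccnc, which encodes cyclin C of the Mediator kinase module, with 2041 normalized counts in HuR against 98.8 in YB-1, 20.7-fold higher in HuR (17.8 to 24.1). Next came Naa30, the catalytic subunit of an N-terminal acetyltransferase, at 13.2-fold (11.99 to 14.5), and Pmaip1, the pro-apoptotic BH3-only protein Noxa, at 12.9-fold (12.2 to 13.7). Regulators of transcription followed: Sox4 at 12.2-fold, Klf5 at 10.6-fold and Tcf4, an E-protein partner of the myogenic factors, at 10.2-fold. RNA-processing genes made up another 3 of the 12 highest. The splicing factor Srsf9 was 12.03-fold higher, the Sm core protein gene Snrpf 11.8-fold, with 17069 against 1452 normalized counts, and the nuclear poly(A)-binding protein gene Pabpn1 9.99-fold, with 49093 against 4916. The remaining members were the thioredoxin-related Tmx3 (11.5-fold), the ubiquitin ligase Ube3a (11.0-fold) and the prefoldin subunit Pfdn2 (9.97-fold). Just outside them stood Hmgb1, a chromatin protein gene, at a log2 ratio of 3.32. An annotated gene on the opposite strand overlaps 5 of these 12, namely Ccnc, Sox4, Snrpf, Ube3a and Pfdn2, and the same holds for Elavl1 and Gapdh. Reads of such partners cannot be told apart unless counting used strand, which is not given in the sources used here.

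Of the 12 lowest ratios at this level, 7 belonged to genes of ribosomal proteins, ubiquitin and ATP synthase. Clec2d, a C-type lectin gene, was farthest towards YB-1, with 213 normalized counts in HuR against 1905 in YB-1, 8.95-fold higher in YB-1 (7.86 to 10.2). Ubb, which encodes polyubiquitin, was 3.89-fold higher in YB-1. The ribosomal protein mRNAs Rps12, Rplp2 and Rpl39 were 3.90-fold, 3.74-fold and 3.65-fold higher in YB-1. Atp5e, the epsilon subunit of ATP synthase, was 4.60-fold higher (4.26 to 4.98), and Dnajb1, an Hsp40 chaperone, 3.90-fold (3.56 to 4.28). Tmsb10, Tmem147 (3.96-fold) and Fam108a (3.65-fold) were also in the group, and Atp5g1 (log2 ratio -1.85) stood just outside it. No opposite-strand gene is annotated over any of the 12.

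The 3' UTRs of the extremes, which the choice of genes did not use, differed in length and in features that grow with it. The 12 highest had a median 3' UTR length of 1947 nt and a median longest run of T of 11.5 bases (range 5 to 16), against 153.5 nt and 4 bases (range 2 to 9) for the 12 lowest. The AU-rich pentamer ATTTA occurred in 11 of the 12 highest and 3 of the 12 lowest. The percentage of T, which does not grow with length by itself, overlapped: its median was 35.3% (range 29.5 to 38.9) in the 12 highest and 30.2% (range 17.9 to 46.2) in the 12 lowest. The 30-base window richest in T is shown for genes from both ends and for Myog, Actb and Gapdh, so that T-rich and T-poor 3' UTRs can be compared by eye; the genes shown do not stand for all members of either end. Windows were read from GRCm38 with GENCODE M21 transcripts, in the sense of the mRNA, with the longest run of T in the window in capitals.
Ccnc (chr4:21749675-21749704, plus strand): tttcttttttcagaTTTTTTTTTTTTTTTT
Sox4 (chr13:28950072-28950101, minus strand): tctttctttttcttcgTTTTTTTTTTTTTT
Snrpf (chr10:93583426-93583455, minus strand): aTTTTTTTTTTTatatatatatgtatttct
Ube3a (chr7:59306527-59306556, plus strand): ttgttttgttttgttttcTTTTTTTTTTTT
Klf5 (chr14:99314697-99314726, plus strand): ttttttttcttttcttcTTTTTTTTTTTTT
Pabpn1 (chr14:54897565-54897594, plus strand): tgtttggacttggttaTTTTTcccatgtgt
Myog (chr1:134292453-134292482, plus strand): ttgtgtggttttgccaaTTTTTTTTctttt
Actb (chr5:142903650-142903679, minus strand): gTTTTTTTTTTTTTTTTTTTTTTTTTTTTT
Gapdh (chr6:125161864-125161893, minus strand): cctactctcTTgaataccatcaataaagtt
Atp5e (chr2:174461076-174461105, minus strand): ctatgccaataaattaacatggttcacTTT
Tmsb10 (chr6:72957749-72957778, minus strand): cacTTTgtctcttccaaaccccttctctgt
Each of these windows lies in the last exon of its transcript. The windows of Ccnc and Sox4 hold 25 T each, that of Klf5 27 and that of Ube3a 26, whereas those of Atp5e and Tmsb10 hold 11 and 12. Myog has 20 T in its richest window and Actb 29. The ends overlapped: among the highest, Pabpn1 has 16 T and no run beyond 5 bases, and among the lowest, Clec2d and Dnajb1 have 17 T and Rplp2 has 16. Over 11201 protein-coding genes with a 3' UTR of at least 50 nt, the median richest window held 18 T, and 27.0% of 3' UTRs held a window with 21 or more.

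Across those 11201 genes, the ratio of HuR over YB-1 climbed with T-rich sequence in the 3' UTR. Where the richest 30-base window held 11 T or fewer, the median log2 ratio was -0.50, with 5.76% of 556 genes at least 2-fold higher in HuR, against 20.0% at least 2-fold lower. Where it held 24 to 30 T, the median was 1.07, with 52.0% of 1249 genes higher and 2.96% lower. Spearman's rho across genes was 0.503 for the T count of this window, and 0.422 with 3' UTR length and mean level held fixed. For the longest run of T it was 0.446, for the T percentage of the 3' UTR 0.397, for the number of ATTTA pentamers 0.374 and for 3' UTR length 0.302. These coefficients describe genes measured in the same 2 libraries, and genes are not independent replicates. Among genes with a mean of 1000 or more, rho was 0.602 for the longest run of T (3629 genes).

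The longest run of T showed the gradient step by step. Genes whose longest run was 3 bases or fewer had a median log2 ratio of -0.51, with 5.51% at least 2-fold higher in HuR, against 18.2% at least 2-fold lower. The median was -0.41 at 4 bases, -0.29 at 5, -0.10 at 6, 0.25 at 7 to 8, 0.56 at 9 to 11 and 0.81 at 12 or more. In the last step 43.1% of 1342 genes were at least 2-fold higher in HuR, against 3.43% at least 2-fold lower. Longer 3' UTRs hold longer runs: the median 3' UTR was 193.5 nt in the first step and 2305 nt in the last. With the run held fixed, rho for 3' UTR length was 0.03, and with T percentage and length held fixed, rho for the run was 0.214. Seen from the other side, a run of 9 or more was present in 53.2% of coding genes at least 4-fold higher in HuR, 19.9% of those within 2-fold and 9.72% of those at least 4-fold lower.

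**Figure D2:**
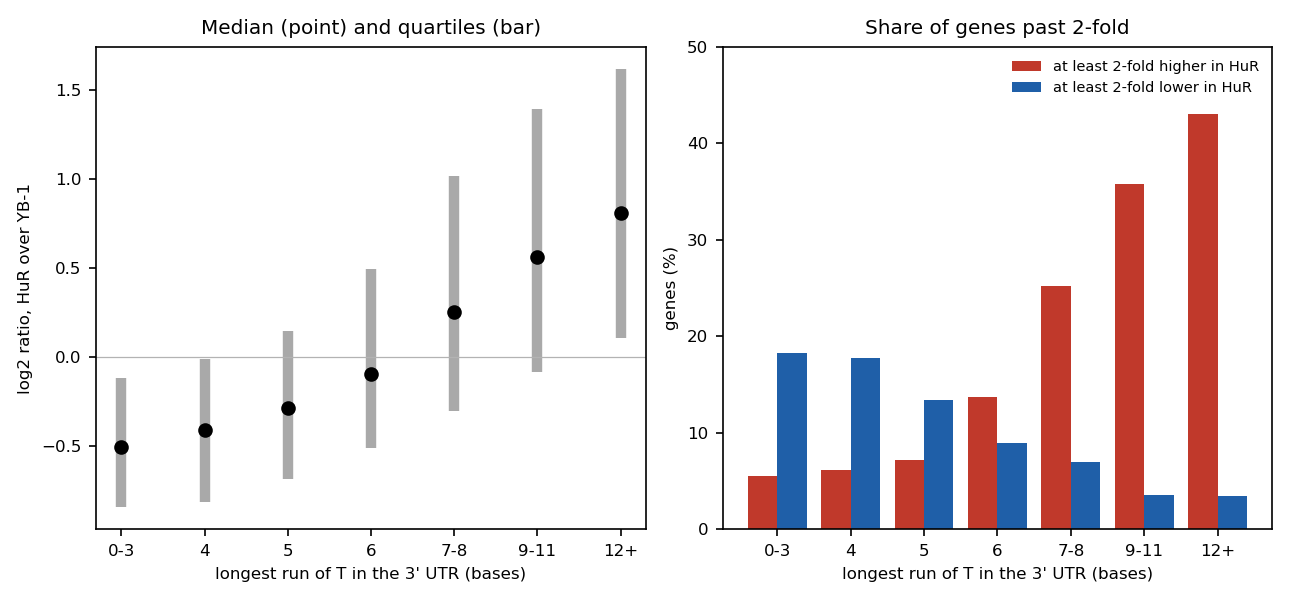
Genes are binned by the longest run of T in the 3' UTR, in bases; the left panel gives the median (point) and quartiles (bar) of the log2 ratio of HuR over YB-1, and the right panel the percentage of genes at least 2-fold higher or lower in HuR. The median climbs from -0.51 to 0.81, and the share of higher genes from 5.51% to 43.1%.

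Length and base content each went with the ratio within strata of the other. In the tertile of genes with the shortest 3' UTRs (50 to 591 nt), the median log2 ratio was -0.47 for the T-poorest tertile and -0.09 for the T-richest. In the tertile with the longest (1635 nt or more), the corresponding medians were -0.25 and 0.99. The number of ATTTA pentamers followed the same course, from a median of -0.37 at none to 0.79 at 9 or more, where 44.8% of 821 genes were at least 2-fold higher in HuR. With T percentage and length held fixed, rho for ATTTA was 0.07, smaller than for the run of T.

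All 1024 words of 5 bases were then ranked by the rho of their density in the 3' UTR with the ratio. TTTTT ranked first, with a rho of 0.451, and was found in 76.2% of 3' UTRs. It was followed by TTTTA (0.371), ATTTT (0.369), GTTTT (0.356) and TTTTG (0.355). With T percentage and length held fixed, TTTTT again ranked first, with a rho of 0.240, and the next was TTTTA at 0.134. The ATTTA pentamer had a rho of 0.280. The lowest values belonged to CCTGG (-0.143) and CCCAG (-0.142). Density in the coding sequence went with the ratio less closely, at 0.130 for TTTTT, and in the 5' UTR less again, at 0.07. CATC and CACC, short words reported for YB-1 binding, had a rho of -0.06 and -0.170 in the 3' UTR and of -0.134 and -0.132 in the coding sequence. With T percentage and length of the 3' UTR held fixed, CATC stood at -0.06 and CACC at -0.03 in the 3' UTR. In the coding sequence, with the same 3' UTR features held fixed, CATC stood at -0.09 and CACC at -0.02.

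**Figure D3:**
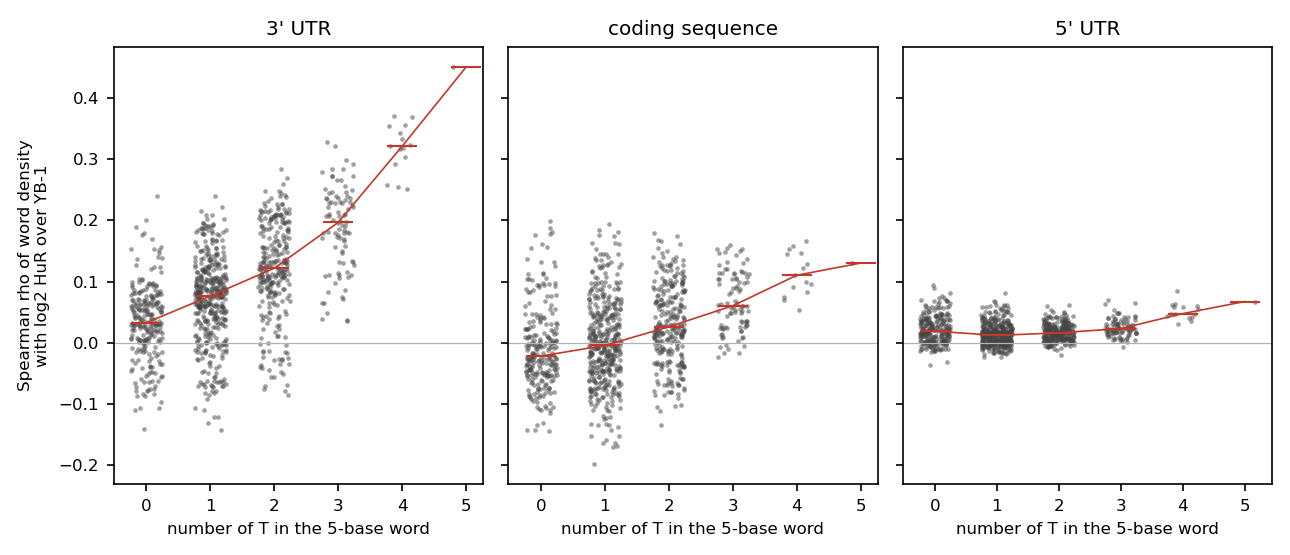
Each point is 1 of the 1024 words of 5 bases, placed by its number of T and by the Spearman rho of its density with the log2 ratio of HuR over YB-1, for the 3' UTR, the coding sequence and the 5' UTR; red marks are medians and horizontal scatter is for legibility. In the 3' UTR the median rho climbs from 0.03 for words without T to 0.451 for the single word of 5 T, against 0.130 and 0.07 for that word in the coding sequence and the 5' UTR.

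Functional classes were spread along the same axis. The 58 classes hold 2820 of the genes, and 28 class medians lay above the median of all genes, -0.06. On the authors' scaling the medians ran from -0.76 for small ribosomal subunit proteins to 1.70 for factors that control mRNA stability. Recentring on ribosomal protein genes turned the sign of 29 class medians, which is why positions are given against all genes. The counts of each class are to be read against the shares over all genes, 19.3% past 2-fold towards HuR and 10.6% towards YB-1.

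**Figure D4:**
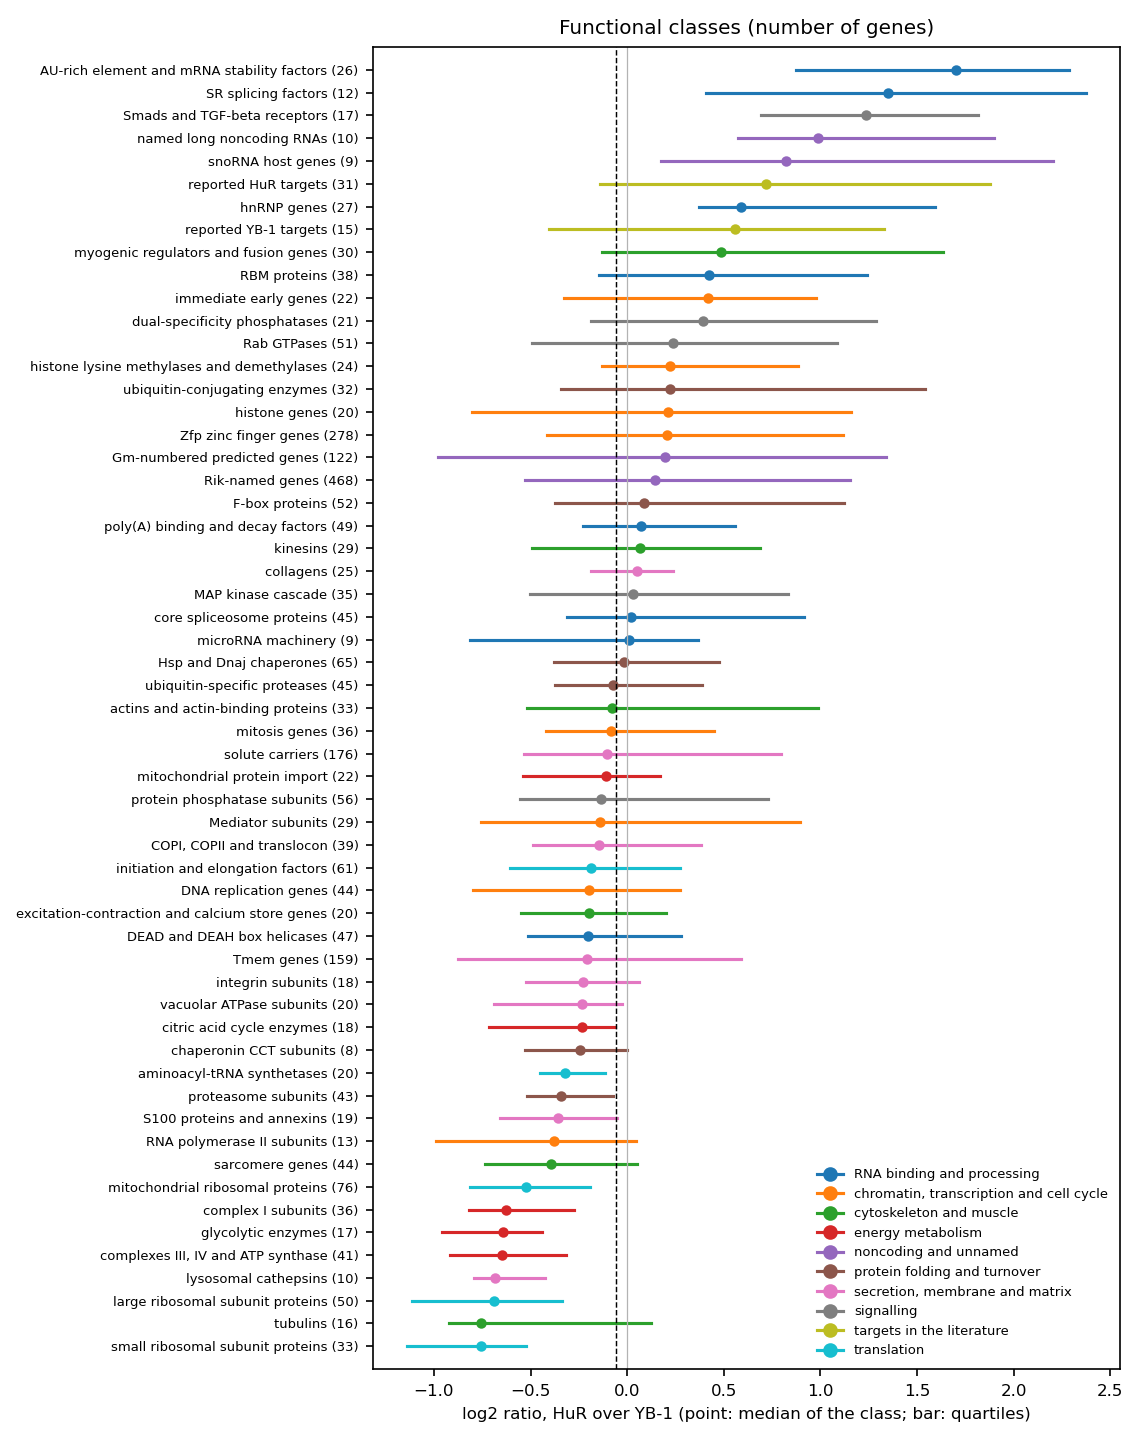
The log2 ratio of HuR over YB-1 is shown for functional classes, with the median (point), the quartiles (bar) and the number of genes in brackets, coloured by role; the dashed line is the median of all genes, -0.06, and the thin line is 0. The mRNA stability factors (1.70), SR splicing factors (1.35) and Smads with TGF-beta receptors (1.24) stand at the top, and small ribosomal subunit genes (-0.76), tubulins (-0.76), large ribosomal subunit genes (-0.69) and cathepsins (-0.69) at the bottom; recentring on ribosomal protein genes shifts all points by 0.73.

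The class with the highest median was that of mRNA stability factors. Of 26 genes for AU-rich element binding proteins and other factors of mRNA stability and translation, 19 (73.1%) were at least 2-fold higher in HuR, 1 was lower, and the median was 1.70. Msi2, the translational regulator Musashi 2, had 23095 normalized counts in HuR against 2354 in YB-1, 9.81-fold higher in HuR (9.50 to 10.1). Mbnl1, a muscleblind splicing regulator of muscle differentiation, stood at 28146 and 3666, 7.68-fold higher (7.48 to 7.88). Others that were chosen after their values were seen were Fmr1, the fragile X protein gene (log2 ratio 3.21), Qk, quaking (2.63), the decay factor Zfp36l1 (2.42), Celf2 (2.10) and Celf1 (1.93). Fxr2 (-0.25) and Ybx1 (-0.26) lay within 2-fold. The single lower member, Igf2bp1, had 0 reads in HuR and 38.3 normalized counts in YB-1, so its ratio rests on the floor of 3 reads.

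Splicing factors were divided by family. Of 12 SR genes, which encode serine and arginine rich splicing activators, 7 were at least 2-fold higher in HuR, 0 were lower, and the median was 1.35. Srsf9 (log2 ratio 3.59), Srsf1 (2.79) and Srsf2 (2.12) stood far towards HuR, while Tra2b (-0.37), a related splicing factor, was lowest. Of 27 hnRNP genes, 12 were higher and 0 lower, with a median of 0.59. Pcbp2, a poly(C)-binding protein gene, was 5.05-fold higher in HuR, Hnrnpl 3.27-fold and Ptbp2, the neural paralog of the polypyrimidine tract protein, 5.09-fold, whereas Pcbp4 was 1.65-fold higher in YB-1. The 38 RBM genes had a median of 0.42, with 11 higher and 2 lower, among them the cold-inducible Rbm3 at 4.17-fold higher in HuR. The 45 core spliceosome genes were centred near all genes, with a median of 0.02, 11 higher and 4 lower. They spanned Snrpf, 11.8-fold higher in HuR, and Snrpd2, another Sm protein gene, 3.32-fold higher in YB-1.

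Other RNA factors lay near the middle. The 49 genes for poly(A) binding and mRNA decay had a median of 0.07, with 7 higher and 0 lower; Pabpn1 stood far above the cytoplasmic Pabpc4 (log2 ratio 0.64). The 47 DEAD and DEAH box helicases had a median of -0.20, with 4 higher and 2 lower, and Ddx6, a helicase of translational repression, was the highest at 4.01-fold. The 9 microRNA pathway genes had a median of 0.01, with Tnrc6c at 1.19 and Tarbp2 at -1.07.

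Lists of targets reported for HuR and for YB-1 give a description and no independent support, since results of these data were known when they were drawn up and the lists share members such as Myog, Hif1a, Vegfa and Ccnd1. Among 31 mRNAs reported as HuR targets, 11 were at least 2-fold higher in HuR, 1 was lower, and the median was 0.72. Hmgb1 had 53004 normalized counts in HuR against 5323 in YB-1, 9.96-fold higher (9.75 to 10.2), and Cycs, cytochrome c, was 1.71-fold higher in YB-1 (1.65 to 1.78). Of 15 reported YB-1 targets, 4 were higher in HuR, 2 were lower, and the median was 0.56. Fth1, ferritin heavy chain, stood at 39365 and 107261, 2.72-fold higher in YB-1 (2.70 to 2.75). Cdkn1a, a cell cycle inhibitor induced in differentiation, was even at 45117 and 45429, as was Myod1, at 7165 and 6960.

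In the muscle programme, regulators and sarcomere genes differed in their medians but overlapped. The quartiles were -0.13 and 1.63 for regulators and fusion genes, and -0.73 and 0.05 for sarcomere genes. Of 30 myogenic regulators and fusion genes, 12 were at least 2-fold higher in HuR, 1 was lower, and the median was 0.49. Besides Myog, the transcription factor genes Tcf4 (log2 ratio 3.35) and Mef2c (1.73) lay towards HuR, and so did the cadherin gene Cdh2 (1.82). Myf5, a determination factor, had 118 normalized counts in HuR against 8.50 in YB-1, a log2 ratio of 3.80. Pax7, a satellite cell factor, went the other way, at 24.1 and 198, 8.21-fold higher in YB-1 (5.59 to 12.5). Mef2c, Cdh2 and Myf5 were picked after their values were seen. Of 44 sarcomere genes, 1 was higher in HuR, 7 were lower, and the median was -0.39. Tpm2, a tropomyosin gene, stood at 111627 in HuR and 177938 in YB-1, and Tpm3, another, was the 1 higher member, 2.78-fold (2.71 to 2.84). Myl2, a myosin light chain gene, was 3.61-fold higher in YB-1 (3.27 to 3.99). The 20 genes of excitation-contraction coupling and calcium stores had a median of -0.20, with 3 higher and 2 lower, and Fkbp1a, which encodes a ryanodine receptor partner, was 4.71-fold higher in HuR.

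The cytoskeleton split within families. The 33 actin and actin-binding genes had a median of -0.08, with 8 higher in HuR and 3 lower, and quartiles of -0.52 and 0.99. Actb lay at 2.34, while the muscle actins Acta1 (-0.88) and Actc1 (-0.80), smooth muscle Acta2 (-1.30) and the other cytoplasmic actin, Actg1 (-0.90), lay below 0 on the scaling of the deposited table. Centring on ribosomal protein genes adds 0.73 to each value, which leaves these 4 below 0 and the distance to Actb unchanged. Cfl2, the muscle cofilin, was 8.30-fold higher in HuR (8.14 to 8.48). Tubulin genes had a median of -0.76 over 16 members, with 1 higher and 3 lower. Tuba1a stood at 30717 and 57810, and neuronal-type Tubb3 was the higher member at 2.11-fold. The 29 kinesins were near the middle, with a median of 0.07.

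Pairs of related genes chosen after their values were seen show how far close homologs parted. Actb has a longest 3' UTR run of 29 T and Actg1 one of 6, and their log2 ratios were 2.34 and -0.90. Ppp1cb and Ppp1ca, catalytic subunits of protein phosphatase 1, had runs of 15 and 6 and ratios of 2.72 and -0.998. Tmsb4x and Tmsb10, the beta thymosins, had runs of 9 and 3 and ratios of 0.80 and -2.15. Other pairs had runs of like length but ratios far apart. Cfl2 and Cfl1 had runs of 13 and 11 and ratios of 3.05 and -0.10. Pabpn1 and Pabpc1 had runs of 5 and 4 but ratios of 3.32 and 0.56. Of 12 such pairs, the member with the longer run had the higher ratio in 9 and the lower in 1, and 2 pairs had equal runs. The 1 was H3f3b and H3f3a, with runs of 7 and 8 and ratios of 1.70 and 0.32. Because the pairs were picked with their values known, the tally is a description and no support for the trend.

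Ribosomal protein genes lay below the median of all genes, and centring on them would set their joint median to 0 by construction. Of 33 small ribosomal subunit protein genes, 0 were at least 2-fold higher in HuR, against 13 (39.4%) at least 2-fold lower. Their median was -0.76, and none lay above the median of all genes. Of 50 large subunit genes, 0 were higher and 15 lower, and their median was -0.69. Rpsa had 33320.5 normalized counts in HuR against 89788 in YB-1, 2.69-fold higher in YB-1 (2.67 to 2.72), and Rpl41 at 21745 and 60453, 2.78-fold (2.74 to 2.82). At the other end of the large subunit genes, Rpl14 was at 0.27. Reads from ribosomal protein genes may be shared with their many processed pseudogenes. The 76 mitochondrial ribosomal protein genes had a median of -0.52, with 4 higher and 8 lower, and ranged from Mrpl1, 4.01-fold higher in HuR, to Mrpl34, 4.00-fold higher in YB-1. The 20 aminoacyl-tRNA synthetase genes had 0 higher, 0 lower and a median of -0.32. The 61 initiation and elongation factor genes had a median of -0.19 with 9 higher and 8 lower. Among these, Eef1a1, which delivers tRNAs to the ribosome, was 1.76-fold higher in YB-1, and Eif4a1, the helicase that prepares mRNA for initiation, 2.36-fold higher in HuR.

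Respiratory chain and glycolytic genes had medians near those of ribosomal protein genes. Complex I subunits (36 genes) had a median of -0.63, complexes III and IV with ATP synthase (41 genes) -0.65 and glycolytic enzymes (17 genes) -0.64. In these classes 0 genes passed 2-fold towards HuR, against 7, 7 and 4 towards YB-1. Ndufb9, a complex I subunit, had 3271 normalized counts in HuR against 7166 in YB-1, 2.19-fold higher in YB-1. Aldoa, aldolase A, stood at 30152 and 58650, 1.95-fold higher in YB-1, and Hk2, hexokinase 2, was the highest glycolytic gene, 1.44-fold higher in HuR (1.36 to 1.52). Citric acid cycle genes (18) had a median of -0.24 with 1 higher, Suclg2, at 2.75-fold, and 2 lower. Mitochondrial import genes (22) had a median of -0.11, although Tomm34 was 5.55-fold higher in HuR.

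Protein turnover genes differed by step. Proteasome subunits (43) had a median of -0.34, with 0 higher and 1 lower, Psmd8, at 2.17-fold higher in YB-1. Ubiquitin-conjugating enzymes (32), which hand ubiquitin to substrates, had a median of 0.22, with 14 (43.8%) higher and 2 lower. Ube2n had 25877 normalized counts in HuR against 5224 in YB-1, 4.95-fold higher in HuR (4.84 to 5.07), and Ube2d3 was 4.12-fold higher. F-box proteins (52), which choose substrates for ubiquitin ligases, had a median of 0.09, with 15 higher and 4 lower. Chaperones of the Hsp and Dnaj families (65) had a median of -0.02, with 6 higher and 8 lower, and the 8 chaperonin subunits one of -0.24 with 0 higher and 0 lower.

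Signalling genes lay mostly at or above the middle. Of 17 Smad and TGF-beta superfamily receptor genes, 10 (58.8%) were at least 2-fold higher in HuR, 0 were lower, and the median was 1.24. Smad1, which carries BMP signals, had 3311 normalized counts in HuR against 655 in YB-1, 5.05-fold higher (4.74 to 5.39), and the BMP receptor gene Bmpr1a was 2.90-fold higher, whereas Smad4 was 1.32-fold higher in YB-1. Dual-specificity phosphatases (21) had a median of 0.39 with 7 higher and 3 lower, and Rab GTPases (51), which direct vesicle traffic, one of 0.24 with 14 higher and 7 lower. Rab18 was 5.47-fold higher in HuR and Rab13 3.35-fold higher in YB-1. MAP kinase cascade genes (35) had a median of 0.03.

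Among nuclear and cell cycle genes, immediate early genes (22) had a median of 0.42, with 5 higher and 1 lower. Klf6 was 5.50-fold and Btg1 4.16-fold higher in HuR, and Atf3 was 2.66-fold higher in YB-1. Zinc finger genes (278) had a median of 0.20, with 76 (27.3%) higher and 26 (9.35%) lower. Histone genes (20) had a median of 0.21 with 7 higher and 5 lower. Without the filter on low values that median was -0.59. The histone variants H3f3b and H3f3a encode H3.3, and they were 3.25-fold and 1.25-fold higher in HuR. DNA replication genes (44) had a median of -0.20, with 4 higher and 7 (15.9%) lower. They ranged from Rpa3, a subunit of the single-strand DNA binding protein, 11.6-fold higher in HuR (10.1 to 13.3), to Prim1, the primase subunit, 5.12-fold higher in YB-1 (3.83 to 6.97). Mitosis genes (36) had a median of -0.08, with 2 higher and 2 lower. Mad2l1, a spindle checkpoint gene, was 2.10-fold higher in HuR, and Bub1, a checkpoint kinase gene, 4.36-fold higher in YB-1 (3.36 to 5.75).

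Membrane, matrix and lysosomal classes ran from collagens (25 genes), with a median of 0.05, to cathepsins (10 genes), the lysosomal proteases, with -0.69 and 0 higher. The highest ratio among 39 genes of the translocon and coat complexes was that of Ssr3, a translocon-associated protein gene, at 7.44-fold higher in HuR (7.24 to 7.65). Integrin subunits (18) had a median of -0.23, but Itgb1, the common beta subunit, had 58128 normalized counts in HuR against 23757 in YB-1, 2.45-fold higher in HuR.

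The main noncoding groups had medians above that of all genes, with H19 as the abundant exception. Of 71 lincRNA genes, 31 were at least 2-fold higher in HuR, 10 were lower, and the median was 0.78, against -0.06 for 11499 protein-coding genes. Antisense genes (63) had a median of 0.68, with 22 higher and 13 lower. For lincRNA and antisense genes alike, the share each way was larger than over all genes (19.3% and 10.6%). These groups were not split by level, and at a mean of 10 to 30 the shares over all genes were 32.0% and 30.95%. Malat1, a nuclear speckle RNA, had 8919 normalized counts in HuR against 2206 in YB-1, 4.04-fold higher in HuR (3.90 to 4.19), and Dnm3os, a host RNA of microRNAs, at 497 and 39.8, 12.5-fold higher (9.80 to 16.1). The 9 snoRNA host genes had a median of 0.82, with 3 higher and 0 lower. Gas5 and Snhg12 stood at log2 ratios of 0.93 and -0.77. Antisense genes are annotated against genes of the opposite strand, and an opposite-strand gene also overlaps H19, Malat1, Dnm3os and Gas5. Reads of such partners cannot be told apart unless counting used strand, which is not given.

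The position of a class went with the runs of T in its 3' UTRs, and also with their length. Across 55 classes with at least 8 coding genes, rho between the class median of the ratio and the class median of the longest run of T was 0.819. It was 0.702 for 3' UTR length and 0.375 for T percentage. Longer 3' UTRs hold longer runs, and run and length were not separated at the level of classes. Small ribosomal subunit, complex I and sarcomere genes had median runs of 4 bases, SR genes of 7, and mRNA stability factors and Smads with their receptors of 9. The trend was also present inside classes. Of 42 classes with at least 20 coding genes that have a 3' UTR, rho between ratio and longest run was above 0 in 39, and rho with T percentage was above 0 in 38, with a median of 0.39. Large and small ribosomal subunit genes were among the exceptions for the run, at -0.07 and -0.46, and sarcomere genes had 0.00 for T percentage. A few genes sit in more than 1 class (28 genes), and all points share the same 2 libraries.

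**Figure D5:**
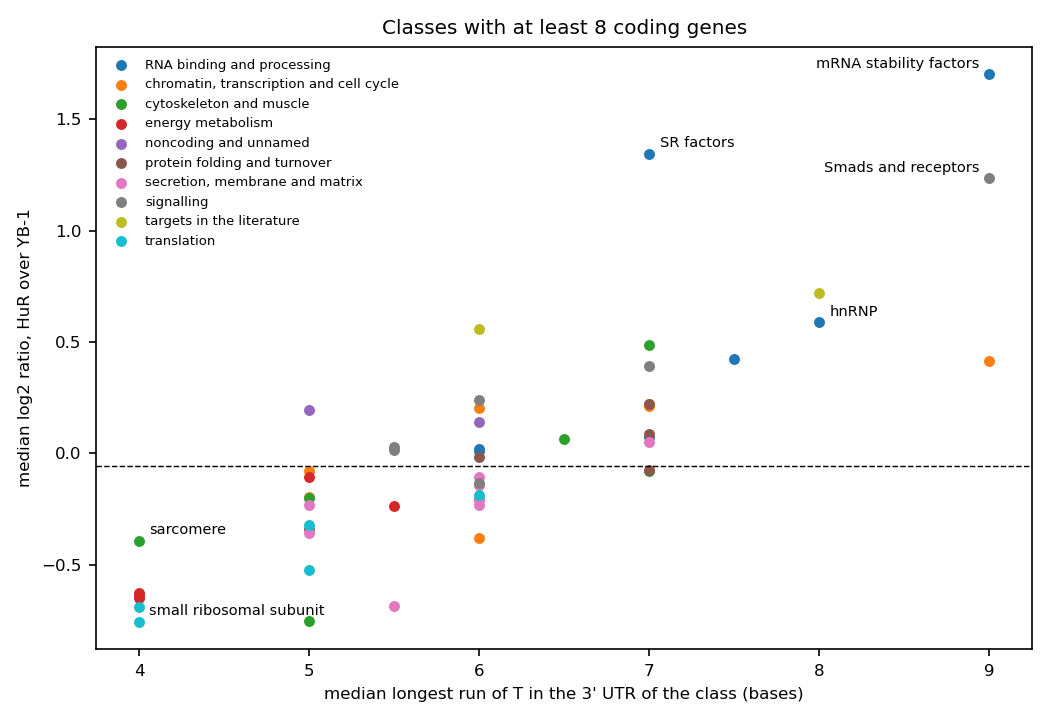
Each point is 1 of the 55 classes with at least 8 coding genes, placed by the median longest run of T in its 3' UTRs, in bases, and by its median log2 ratio of HuR over YB-1, coloured by role; the dashed line is the median of all genes, -0.06. Classes with a median run of 4 lie below the line, and the mRNA stability factors, with a run of 9, lie highest at 1.70.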

How the data were processed

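The deposited table holds, for 15428 named rows, the authors' normalized signal per library, that is read counts divided by a size factor, set by the authors for 3 libraries together, IgG included. The tools were TopHat2 2.0.10, HTSeq 0.6.1 and DESeq2 and the build mm10 (GRCm38), per the submitters' processing notes; neither parameters nor strand settings are given in the sources used here. The authors' log2 fold changes, Wald scores with standard errors, and p-values, which compare YB-1 with IgG, were not used. All values were whole multiples of 1 read within 0.01 read, so whole reads were recovered. Ratios were taken from the HuR and YB-1 columns alone, with a library at 0 set to 3 reads (174 genes in HuR, 171 in YB-1); such ratios are bounds. Analyses used Python 3.11.15, pandas 2.3.3 and scipy 1.17.1, after the ratio and interval code had been checked on simulated data. That check did not cover rank correlations or words. UTRs came from GENCODE M21, 1 transcript a gene: the longest coding sequence, then the longest 3' UTR. Symbols of 14451 rows matched directly and 800 as synonyms.

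The members, classes and lists were chosen with earlier results of these data known. Named genes were Myog, Elavl1, Ybx1, the 12 highest and 12 lowest ratios at a mean of 1000 or more, the 6 most abundant, and in each class the 2 most abundant members and the highest and lowest ratio at a mean of 100 or more. Others were chosen after their values were seen. No test was run, since there is 1 library per antibody, and nothing in the labels says whether the extracts came from separate cultures. Alternatives varied the scaling, the floor, the filter on low values and the transcript. Some genes of the named set, 1 class and some sequences are not reported here.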

Additional observations from a re-analysis of the deposited data

How the results depend on the processing

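No paired analysis was possible because each antibody has 1 library. The 2289 genes at least 2-fold higher in HuR became 4376, and the 1263 lower genes 451, when ratios were centred on ribosomal protein genes; at a mean of 100 or more the lower genes numbered 628, fewer genes being counted. Among 230 named or class genes, the sign of the log2 ratio changed for 37 with ribosomal centring, 2 with median centring and 1 with total reads. None of the 143 past 2-fold changed sign. That was fixed in advance, since the largest shift was 0.73 and 2-fold is a log2 ratio of 1. The sign of the class median changed for 29 of 58 classes with ribosomal centring, 4 with total reads, 1 with median centring, 4 with a mean of 100 or more and 2 without a filter. With the shortest 3' UTR, rho was 0.280 for length, 0.427 for the run of T and 0.351 for ATTTA. At a mean of 100 or more it was 0.355 for length, 0.455 for T percentage, 0.510 for the run and 0.434 for ATTTA. With length and level held fixed it was 0.374 for T percentage, 0.344 for the run and 0.239 for ATTTA. Depth limits single ratios at low levels, where counting intervals are wide.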
